A study of Homo sapiens with 8 samples.

Results

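PPP1R14B, an inhibitor of protein phosphatase 1 (PP1), was examined together with its 3 paralogs PPP1R14A, PPP1R14C and PPP1R14D, the PP1 catalytic subunits PPP1CA, PPP1CB and PPP1CC, and the myosin-targeting subunits PPP1R12A, PPP1R12B and PPP1R12C. These 10 genes were taken by symbol from a raw count table of 23346 symbols, and each had a row. The family was picked because PPP1R14B had the largest fall in this comparison among genes with no miR-194 site in the 3' UTR. The values of PPP1R14B are therefore a description and carry no test, while the other members were picked by name as its relatives and partners.

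The samples were cells of 22Rv1, a human prostate cancer cell line in long-standing use, transfected in suspension with a miR-194 mimic at 20 nM or with a negative control at 20 nM and collected 36 h later, with 4 libraries per group. Both groups were grown in serum and transfected, and no untransfected library was used here. The comparison covers 1 cell line, 1 dose and 1 time, and nothing in the labels says whether each replicate was its own culture. The p-values therefore measure only the spread between these libraries, which may be technical. Library totals ran from 32485036 to 47248241 counts. All 10 luminal prostate markers on the list used here were detected, with summed levels of 4702 to 5025 CPM (counts scaled to TMM-adjusted library totals) in mimic libraries and 4515 to 4730 CPM in control libraries. Of 10 smooth muscle markers, 6 stayed under 1 CPM in every library, MYH11, CNN1, DES and MYOCD among them. The others were SMTN, TAGLN, LMOD1 and ACTA2. LMOD1 averaged 1.66 CPM in mimic and 2.52 CPM in control libraries, and ACTA2 0.89 CPM in mimic and 1.61 CPM in control libraries. SYNPO2, under 1 CPM throughout, went the other way, at 0.80 CPM in mimic and 0.47 CPM in control libraries. The summed smooth muscle level was 82.0 to 96.7 CPM in mimic libraries and 88.1 to 111.5 CPM in control libraries, most of it from SMTN, and its part in the results was not tested.

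PP1 removes phosphate from serine and threonine residues, and its catalytic subunit works in complex with regulatory subunits that choose the substrate. The PPP1R12 proteins (MYPT1, MYPT2 and MBS85) bring the catalytic subunit to the myosin light chain and to other substrates, and myosin phosphatase opposes the contraction driven by myosin light chain kinase. The PPP1R14 proteins (CPI-17, PHI-1, KEPI and GBPI-1) block PP1 when they are themselves phosphorylated, by kinases such as protein kinase C. CPI-17 is known from smooth muscle, and PHI-1, the product of PPP1R14B, is widely expressed. A microRNA lowers an mRNA mainly through pairing of its seed, bases 2 to 8, with a site that most often lies in the 3' UTR.

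The 5p arm of the hairpin, the strand usually called miR-194, is shown with the 8mer and 7mer matches to its seed in the members, because PPP1R14B was picked for its lack of such a match in the 3' UTR and the matches show where the members hold one. Sequences run 5′ to 3′, the microRNA is from RefSeq (GRCh38.p14), the target windows are from GENCODE 29 transcripts (GRCh38), and capitals mark the seed or its match.
miR-194-5p: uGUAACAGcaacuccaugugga
PPP1R14B coding sequence, 8mer: gggtcaaggagctgctggttgaCTGTTACA
PPP1R12A coding sequence, 8mer: agtacacaagcagctcctgtagCTGTTACA
PPP1R12A coding sequence, 7mer-A1: cagaaagaaaaagatactgcaggTGTTACA
PPP1R12B 3' UTR, 7mer-m8: cccctcagtcttactttgagctgCTGTTAC
The PPP1R14B match is a full 8mer, and it lies in the coding sequence at chr11:64244941-64244948 on the minus strand, in exon 3 of 4. This exon is 33 bases long, so the printed window begins in exon 2. The match starts at base 357 of the 444-base coding sequence, and 80 bases of that sequence follow the match. All 3 annotated coding transcripts of PPP1R14B hold this match. The 270-base 3' UTR of PPP1R14B held no 8mer, 7mer or 6mer match. PPP1R12A also carried an 8mer in its coding sequence, at chr12:79817445-79817452 on the minus strand in exon 9 of 25, and a 7mer-A1 in exon 10. PPP1R12B carried a 7mer-m8 in the 3' UTR of its longest transcript, at chr1:202582186-202582192 on the plus strand. Not all of its 8 annotated coding transcripts hold this match. Each of these PPP1R12 genes also held a 6mer, in the coding sequence of PPP1R12A and in the 3' UTR of PPP1R12B. In their longest transcripts the other 7 genes, the 3 PPP1R14B paralogs and the 3 catalytic subunits among them, held no 8mer, 7mer or 6mer match, and a further PPP1CC transcript held an 8mer in its 5' UTR.

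PPP1R14B was 4.46-fold lower in the mimic libraries. Its level was 47.5, 43.7, 44.8 and 47.1 CPM in mimic replicates 1 to 4, against 204, 205, 195 and 214 CPM in control replicates 1 to 4. The groups lay far apart, with a mean of 45.8 ± 1.81 CPM in mimic and 204 ± 7.58 CPM in control libraries (SD, n = 4 each). The log2 fold change was -2.16 ± 0.04 (SE), with -2.16 from replicates 1 and 2 alone and -2.15 from replicates 3 and 4 alone. The log2 ratio of same-numbered libraries ran from -2.23 to -2.10. Leaving out 1 library at a time moved the fold change between -2.18 and -2.13. Among tested genes whose longest transcript had neither an 8mer nor a 7mer in its 3' UTR, PPP1R14B stood first by the size of its fall. The next were C12orf76 at -1.77 and TCEA3 at -1.62, neither of which had an 8mer or 7mer in the coding sequence. In bulk RNA, fewer cells of a kind and less RNA per cell cannot be told apart.

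**Figure D1:**
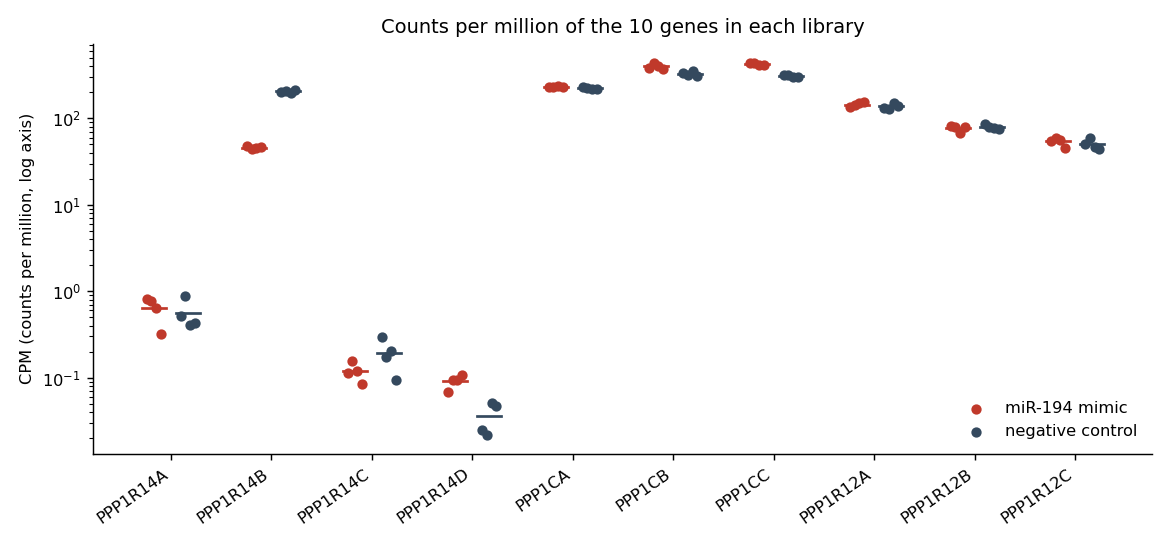
Level in CPM (log axis) of the 10 genes in each library, with mimic libraries left of control libraries and a line at each group mean. PPP1R14B sits at 43.7 to 47.5 CPM in the mimic libraries, against 195 to 214 CPM in the control libraries, and PPP1CB and PPP1CC are the other well-counted members whose groups do not overlap.

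The 3 paralogs were close to absent in these cells, in both groups. PPP1R14A, which encodes CPI-17, had 36, 25, 27 and 15 counts in the mimic libraries and 21, 41, 16 and 18 counts in the control libraries. The groups overlapped, and the difference, 0.14 ± 0.33 (SE) on the log2 scale, did not pass the test (edgeR adjusted p = 0.774). With 1 library left out this value ran from -0.02 to 0.47. PPP1R14C, which encodes KEPI, had 4 to 5 counts in the mimic libraries, 19 in sum, and 4 to 12 in the control libraries, 32 in sum. PPP1R14D, which encodes GBPI-1, had 3 to 5 counts in the mimic libraries, 15 in sum, and 1 to 2 in the control libraries, 6 in sum, close to the floor of 3 counts per library. Both were below the filter on low counts. Tested with no filter, edgeR gave PPP1R14C a log2 fold change of -0.71 (adjusted p = 0.246) and PPP1R14D one of 1.28 (adjusted p = 0.121), and neither passed.

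Per kilobase of the longest annotated transcript, PPP1R14B made up nearly all of the PPP1R14 level in either group. Its share was 98.2 ± 0.51% in mimic and 99.7 ± 0.11% in control libraries (SD, n = 4 each). PPP1R14A supplied 1.42 ± 0.51% of the level in mimic and 0.283 ± 0.11% in control libraries. The larger share in the mimic libraries stands beside a PPP1R14A level of 0.674 CPM per kilobase in mimic and 0.592 in control libraries and the lower level of PPP1R14B.

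Of the 8 members that passed the filter on low counts, the 7 other than PPP1R14B were tested, and 2 of these rose in the mimic libraries while none fell. Over all 14977 tested genes, 18.3% were higher, 19.9% were lower and 38.1% changed in either direction (Benjamini-Hochberg adjusted p under 0.05, quasi-likelihood test of edgeR). The 2 of 7 called among these members is no larger a share than that of all genes. Both genes that rose encode catalytic subunits.

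PPP1CC, the gamma catalytic subunit, rose 1.39-fold. Its level was 437, 439, 419 and 419 CPM in mimic replicates 1 to 4, against 315, 317, 297 and 299 CPM in control replicates 1 to 4. The mean was 428 ± 11.1 CPM in mimic and 307 ± 10.7 CPM in control libraries (SD, n = 4 each). Every mimic library lay above every control library, and the groups failed to overlap, in either direction, in 36.9% of all tested genes. The log2 fold change was 0.48 ± 0.03 (SE, edgeR adjusted p = 9.64e-07), with 0.47 from replicates 1 and 2 alone and 0.49 from replicates 3 and 4 alone. Of all genes called higher, 543 had a fold change at least as large.

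PPP1CB, the beta catalytic subunit that myosin phosphatase uses, rose 1.22-fold. Its level was 385, 441, 403 and 373 CPM in mimic replicates 1 to 4, against 331, 316, 351 and 312 CPM in control replicates 1 to 4. The lowest mimic library lay above the highest control library. The log2 fold change was 0.29 ± 0.05 (SE, edgeR adjusted p = 0.00139), with 0.35 from replicates 1 and 2 alone and 0.23 from replicates 3 and 4 alone. PPP1CA, the alpha catalytic subunit, did not pass. It averaged 232 ± 4.54 CPM in mimic and 223 ± 6.74 CPM in control libraries (SD, n = 4 each), the groups overlapped, and the log2 fold change was 0.05 ± 0.03 (SE, edgeR adjusted p = 0.222).

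Per kilobase of transcript the summed catalytic level was 406 ± 9.28 CPM per kilobase in mimic and 338 ± 8.43 in control libraries (SD, n = 4 each). PPP1CC supplied 41.2 ± 0.77% of it in mimic and 35.5 ± 0.71% in control libraries. PPP1CA supplied 38.7 ± 1.03% in mimic and 44.7 ± 0.48% in control libraries, and PPP1CB 20.1 ± 1.07% in mimic and 19.8 ± 1.07% in control libraries. Set against that sum, the level of PPP1R14B was 0.115 ± 0.007 in mimic and 0.616 ± 0.032 in control libraries. With the joined exons of all coding transcripts as the length in place of the longest transcript, a choice made after the data were seen, the share of PPP1CC was 31.5% in mimic and 26.7% in control libraries, and the PPP1R14B ratio was 0.0962 in mimic and 0.507 in control libraries.

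The order of the levels per kilobase differed between the groups at the top. In the mimic libraries PPP1CC stood first at 167 ± 4.34 CPM per kilobase, then PPP1CA at 157 ± 3.08, PPP1CB at 81.9 ± 6.06 and PPP1R14B at 46.6 ± 1.84 (SD, n = 4). In the control libraries PPP1R14B stood first at 208 ± 7.72 CPM per kilobase, ahead of PPP1CA at 151 ± 4.56, PPP1CC at 120 ± 4.17 and PPP1CB at 66.9 ± 3.54. PPP1CC lay above PPP1CA in each of the 4 mimic libraries, but with the alternative length PPP1CC was at 90.8 and PPP1CA at 121 CPM per kilobase there. Below these, PPP1R12A, PPP1R12C, PPP1R12B and PPP1R14A followed in both groups. The place of PPP1R12B rests on a length of 15.4 kilobases, most of it 3' UTR, and the transcripts expressed here were not tested. In CPM, PPP1R12B averaged 77.4 in mimic and 79.5 in control libraries, above PPP1R12C at 54.0 in mimic and 50.1 in control libraries.

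**Figure D2:**
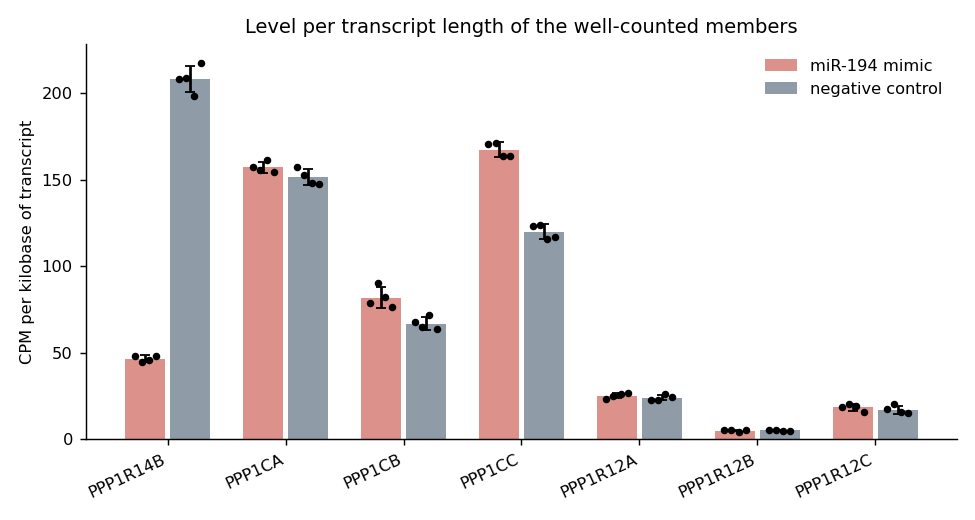
Level per kilobase of the longest transcript for the 7 well-counted members, with bars at the group mean, error bars of 1 SD and a point per library, mimic left of control. PPP1R14B stands at 46.6 in mimic and 208 in control libraries, while PPP1CC stands at 167 in mimic and 120 in control libraries.

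The targeting subunits did not pass the test. PPP1R12A, which encodes MYPT1, had 134, 142, 149 and 153 CPM in mimic replicates 1 to 4, against 131, 130, 149 and 140 CPM in control replicates 1 to 4. The groups overlapped, with a log2 fold change of 0.07 ± 0.05 (SE, edgeR adjusted p = 0.323), although its coding sequence holds an 8mer and a 7mer-A1. PPP1R12B encodes MYPT2 and holds a 7mer-m8 in the 3' UTR of its longest transcript. The level of PPP1R12B averaged 77.4 ± 6.67 CPM in mimic and 79.5 ± 4.94 CPM in control libraries (SD, n = 4 each). This is -0.04 on the log2 scale with an SE of 0.06 (edgeR adjusted p = 0.675). Which of its transcripts these cells express was not tested. PPP1R12C, which encodes MBS85, averaged 54.0 ± 6.10 CPM in mimic and 50.1 ± 6.53 CPM in control libraries (SD, n = 4 each), with a log2 fold change of 0.11 ± 0.10 (SE, edgeR adjusted p = 0.448). With the replicate number as a block, PPP1R12C passed at 0.11 ± 0.04 (edgeR adjusted p = 0.0419). PPP1R12A supplied 51.8 ± 3.49% of the PPP1R12 level per kilobase in mimic and 51.9 ± 4.05% in control libraries.

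The coding-sequence 8mer of PPP1R14B was set beside the same match in other genes. Of 13580 tested genes matched to the reference, 286 (2.11%) had an 8mer, the letters CTGTTACA on the strand of the mRNA, in the coding sequence of the longest transcript and no 8mer or 7mer in the 3' UTR. Their median log2 fold change was -0.09, and 98 of them (34.3%) were called lower and 33 (11.5%) higher. The 98 include PPP1R14B, which was chosen for its fall and carries no test. Of 9633 genes with no 8mer or 7mer in either region, 13.8% were called lower and 22.5% higher, with a median of 0.04. Of 2708 genes with an 8mer or 7mer in the 3' UTR, 41.3% were called lower and 11.2% higher, with a median of -0.12. PPP1R14B was the lowest of the 286, which its choice as the largest fall without a 3' UTR site fixed, and PPP1R12A ranked 223 from the lowest. After PPP1R14B came KCTD17 at -1.12, PANX2 at -0.93, and NIPAL2 and MTHFD2 at -0.90 each, so PPP1R14B and KCTD17 were the 2 with a fall of 2-fold or more.

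**Figure D3:**
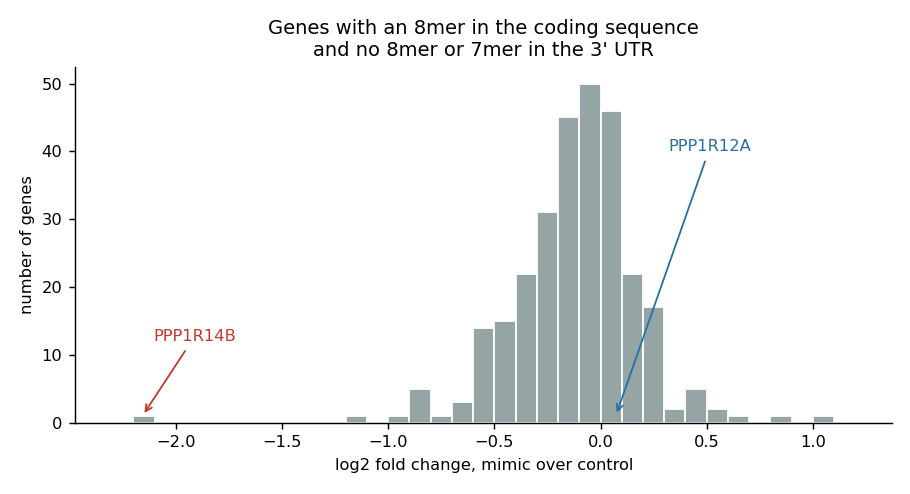
Number of genes by log2 fold change (mimic over control) among the 286 genes with an 8mer in the coding sequence and no 8mer or 7mer in the 3' UTR, in bins of 0.1. PPP1R14B at -2.16 lies at the far left, a place set by how it was chosen, and PPP1R12A at 0.07 lies within the bulk.

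The bases next to the seed match were also compared, after the data were seen. In the predicted duplex of the 30-base window with miR-194-5p (RNAduplex), the PPP1R14B site paired 18 bases of the microRNA, 10 of them after base 8, at -16.9 kcal/mol. The PPP1R12A 8mer paired 15 bases, 7 of them after base 8, at -14.7 kcal/mol. The PPP1R12B 7mer-m8 paired 16 bases, 9 of them after base 8, at -18.3 kcal/mol. Over the 286 genes the median was -14.6 kcal/mol, and 63 genes, PPP1R14B included, had a duplex of -16.9 kcal/mol or below. These 63 had a median log2 fold change of -0.10, and the lowest among them after PPP1R14B was -0.56. Of the 63, 19 were called lower, a count that includes PPP1R14B, which carries no test. Over all 286 genes, PPP1R14B included, 34.3% were called lower. The median number of bases paired after base 8 was 8 over the 286 genes. In 56 of them, PPP1R14B included, this number was 10 or more, with a median log2 fold change of -0.11.

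Of the 9 tested neighbours of PPP1R14B on chromosome 11, NUDT22 alone passed the test, with a log2 fold change of 0.30. Over all tested genes 38.1% were called. From replicates 1 and 2 alone NUDT22 did not pass (0.17, edgeR adjusted p = 0.0598), while TRPT1 passed there as lower (-0.20, edgeR adjusted p = 0.0153). FKBP2, an endoplasmic reticulum prolyl isomerase that ends 348 bases from PPP1R14B, averaged 77.3 ± 4.51 CPM in mimic and 78.7 ± 5.46 CPM in control libraries (SD, n = 4 each), which is -0.02 on the log2 scale with an SE of 0.06 (edgeR adjusted p = 0.776). PLCB3, a phospholipase C that starts 4582 bases away on the other side, stood at -0.0029 on the log2 scale with an SE of 0.06 (edgeR adjusted p = 0.976). The antisense gene PPP1R14B-AS1 overlaps PPP1R14B on the plus strand and had no row under this symbol or the GENCODE name AP001453.2. The lincRNA AP001453.3, on the same strand as PPP1R14B, overlaps its first bases and had no row either. As the strand setting of the counting was not given in the sources used here, reads from the antisense gene cannot be told apart from those of PPP1R14B, and nor can reads from the few bases shared with AP001453.3.

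**Figure D4:**
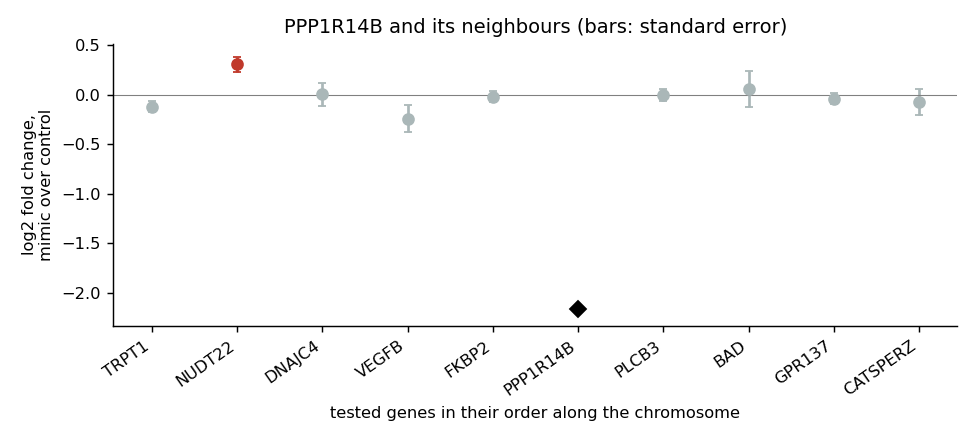
Log2 fold change, mimic over control, of PPP1R14B (black diamond, no test) and of the 9 tested neighbours in their order along chromosome 11, with bars of 1 standard error. Red marks a gene called higher and grey one not called, and the neighbours lie between -0.24 and 0.30.

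Genes with similar sequence could share reads, so the transcripts were compared. Within each family the longest identical run between any pair of members was 23 bases, between PPP1CB and PPP1CC. PPP1R14B has pseudogenes in the GENCODE annotation with longer identical runs, 205 bases in PPP1R14BP3, 74 in PPP1R14BP2 and 55 in PPP1R14BP5, and none of them had a row in the table. The treatment of reads shared with them was not given in the sources used here.

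The genes with the profile most like that of PPP1R14B over the 8 libraries are named as a description, since a gene chosen for a large fall has its nearest profiles among other large falls. Likeness was the Euclidean distance between log2 CPM profiles centred on each gene's mean, over 10302 genes whose log2 CPM averaged 3 or more, where the median distance was 3.08. The 5 nearest were BCKDHA at 0.44, FZD6 at 0.46, TMEM194A at 0.52, MRS2 at 0.53 and IL6ST at 0.62. Each of these 5 had an 8mer in the 3' UTR of its longest transcript. In the coding sequence, FZD6 and TMEM194A also held an 8mer and BCKDHA a 7mer-m8, while MRS2 and IL6ST held no match. Sites are common among large falls, as 91 of the 119 matched genes called lower by 2-fold or more had an 8mer or 7mer there.

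Among 30 tested regulatory subunits of PP1 outside the family, 3 rose, 4 fell and 23 did not pass, with a median log2 fold change of 0.03, against 0.0017 over all tested genes, of which 38.1% were called. With the replicate block 12 were called, and without mimic replicate 3 there were 4. PPP1R3E, a glycogen-targeting subunit with a 7mer-A1 in its 3' UTR, fell by 0.49 on the log2 scale, with 13.9 ± 0.56 CPM in mimic libraries, against 19.5 ± 1.28 CPM in control libraries (SD, n = 4 each, edgeR adjusted p = 9.17e-05). PPP1R15B, which directs PP1 to the translation factor eIF2α, rose by 0.19 on that scale, and PPP1R2, inhibitor-2, rose by 0.22. PPP1R1A, inhibitor-1, fell by 0.66 at a low level of 1.54 CPM in mimic and 2.42 CPM in control libraries, and within replicates 3 and 4 alone it did not pass (adjusted p = 0.0779). Of the 6 members of this list with an 8mer or 7mer in the 3' UTR, 2 fell and 0 rose. Over all 2708 matched genes with such a site, 41.3% were called lower and 11.2% higher.

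Of 16 genes of the non-muscle myosin circuit, 4 rose, 3 fell and 9 did not pass, beside 38.1% called over all tested genes. The log2 fold changes of this list ran from -0.32 to 1.37, with a median of 0.01, and not all of those called are named. MYLK, myosin light chain kinase, with an 8mer in its 3' UTR, fell by 0.32 on the log2 scale, with 12.1 ± 1.01 CPM in mimic libraries, against 15.1 ± 0.64 CPM in control libraries (SD, n = 4 each, edgeR adjusted p = 0.00339). CALM2, a calmodulin gene, fell by 0.17. Among regulatory light chains MYL9 rose by 0.35, with 0.19 from replicates 1 and 2 alone, where it did not pass (edgeR adjusted p = 0.0691), and 0.48 from replicates 3 and 4 alone. MYL12A and MYL12B, which had higher counts, had log2 fold changes of -0.0021 (MYL12A) and -0.07 (MYL12B) and did not pass.

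Of 17 kinases that act on CPI-17 or MYPT1, 4 rose, 2 fell and 11 did not pass, beside 38.1% called over all tested genes. The log2 fold changes of this list ran from -0.26 to 0.45, with a median of -0.03, and the genes named here are not all of those called. Within replicates 3 and 4 alone, 2 of the 17 passed. DAPK3, which phosphorylates myosin light chain and MYPT1, rose by 0.36 on the log2 scale, PRKCE, a protein kinase C, by 0.45 and PRKCI, an atypical one, by 0.12. Among the 6 ERM proteins, merlin and their kinases, which link actin to the membrane and include MYPT1 substrates, 3 rose, 1 fell and 2 did not pass, with a median of 0.14, on a list too short to set its share called against the 38.1% over all genes. MSN, moesin, rose by 0.54 on the log2 scale at a low level of 7.88 CPM in mimic and 5.44 CPM in control libraries. NF2, merlin, rose by 0.18 and STK10, an ERM kinase, by 0.22, while RDX, radixin, fell by 0.16. STK10 did not pass without control replicate 2 (edgeR adjusted p = 0.0522) or within replicates 1 and 2 (adjusted p = 0.0602), where RDX did not pass either (adjusted p = 0.0755). DAPK3 and PRKCI did not pass within replicates 3 and 4, at an adjusted p of 0.0778 for DAPK3 and 0.0963 for PRKCI.

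**Figure D5:**
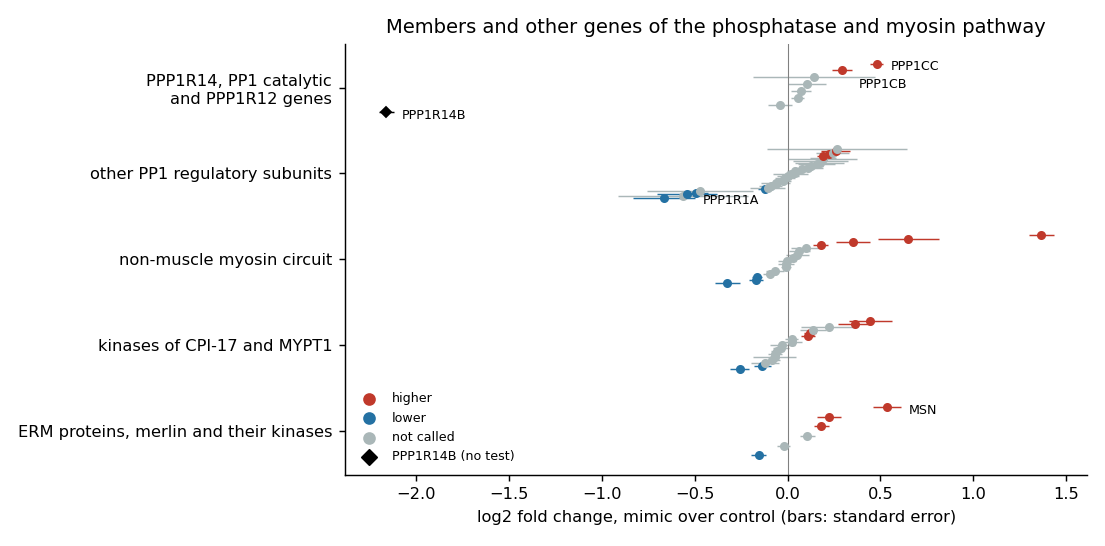
Log2 fold change, mimic over control, with bars of 1 standard error, for the tested members in the top row and for the 4 pathway lists below it. Red and blue mark genes called higher and lower, grey those not called, and the black diamond PPP1R14B at -2.16. PPP1R14B was chosen for the size of its fall, and it lies below every gene of the 4 lists, the lowest at -0.66.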

How the data were processed

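Per the file headers and the values, the authors deposited raw, unnormalized counts by gene symbol for 8 libraries; leading spaces were removed from the symbols. Tools named, without roles, in the submitters' processing notes are STAR, cutadapt 1.8.1, FastQC, edgeR 3.3 and R 3.2.3, with build hg19. Counting program, annotation and strand setting were not given in the sources used here. The test was that of edgeR 4.0.16, run under R 4.3.3 (filterByExpr, TMM, robust quasi-likelihood fit, group as the only term), with Benjamini-Hochberg adjustment over all 14977 tested genes. SE is the size of the log2 fold change over the root of the F statistic. CPM use TMM library sizes, and log2 CPM a prior count of 2. Library totals differed 1.45-fold, and 3 counts equal 0.0635 to 0.0924 CPM, a floor that covers counting error only.

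GENCODE 29 (GRCh38) gave sites and lengths. It is not the build of the counts, so genes were joined by symbol (90.7% of tested genes matched). Classes were 8mer (CTGTTACA), 7mer-m8 (CTGTTAC), 7mer-A1 (TGTTACA) and 6mer (TGTTAC). Duplexes came from RNAduplex of ViennaRNA 2.7.2.

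Members and lists were chosen with earlier results of these data known. Genes named are all members, up to 4 called genes of smallest p per list (some are not reported here), overlapping and adjacent genes, genes whose symbol begins with PPP1R14, and the 5 nearest profiles. MYL9, MYL12A, MYL12B, NUDT22, TRPT1 and the genes with the next largest falls were named after their values were seen.

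Replicate numbers are shared between the groups. Deviations of same-numbered libraries from their group means correlated at 0.27, 0.34, 0.18 and 0.43, which meets the criterion for pairs, although replicates 1 and 2, and 3 and 4, exchanged partners as well (0.20 to 0.32). The reported fit has no term for the pairs, and the replicate block is an alternative. No pair of libraries within a group agreed to within counting noise (chi-square over degrees of freedom 3.92 to 18.5). On simulated counts for this comparison (14887 genes), edgeR recovered 60% of genes changed 1.25-fold, 78% at 1.5-fold, 94% at 2-fold and 98% at 3-fold, and 4.07% of calls were false. The simulated libraries were drawn independently, and a far smaller share of genes was changed than the 38.1% called in the data. The rates in the data may therefore differ. Alternatives used DESeq2 1.42.0, limma 3.58.1 (voom), other scalings and filters, the replicate block and leaving libraries out.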

Additional observations from a re-analysis of the deposited data

Results flagged for a closer look

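In 56 groups of 4 libraries (28 named genes), 2 groups had 1 library far from the other 3 by Dixon's criterion, and chance gives about 1 in 20. MSN was 5.98 CPM in control replicate 3, against 5.25 to 5.28 CPM in the other control libraries. MYLK was 14.1 CPM in control replicate 3, against 15.3 to 15.5 CPM in the others. Neither of these is a PPP1R14, PP1 catalytic or PPP1R12 gene.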

How the results depend on the processing

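The calls of PPP1CB and PPP1CC held under all 17 alternatives, with adjusted p up to 0.0231 for PPP1CB and up to 2.68e-05 for PPP1CC, and PPP1R14B kept a log2 fold change between -2.18 and -2.13. The count of members called other than PPP1R14B was 2 with any 1 library left out. With the replicate block PPP1R12C passed at 0.11, so that 3 members were called, and the other PP1 regulatory subunits called numbered 12 in place of 7. The block changed the call of no other member. Without 1 library those regulatory subunits numbered 4 to 8, the 4 without mimic replicate 3. The kinases called numbered 2 within replicates 3 and 4, and 4 to 6 without 1 library. The myosin circuit numbered 7 to 8 and the ERM list 3 to 5 without 1 library. All genes called ran from 4851 to 7616, against 5712. Seed matches of 7mer or longer in the members numbered 4 in the longest transcripts and 5 over all annotated transcripts. The causes of these shifts were not tested. Depth limits PPP1R14C, with 19 counts in mimic and 32 in control libraries, and PPP1R14D, with 15 in mimic and 6 in control libraries.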

Other observations

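The other strand of the hairpin, miR-194-3p, matched several members. PPP1R12B, with a 12146-base 3' UTR, held 1 8mer, 2 7mer-m8 and 1 7mer-A1 match to its seed there, PPP1R12C held 1 7mer-m8 and PPP1R12A 1 7mer-A1 in the 3' UTR, and none of these 3 genes passed the test. PPP1R14B held no such match in its longest transcript, and a 7mer-m8 in the 5' UTR of another coding transcript. Whether the mimic carries this strand was not given in the sources used here.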
